A study of Mus musculus with 6 samples.

Results

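A set of 10 genes that microglia switch on around damaged or diseased brain tissue were followed through whole-brain RNA of irradiated and mock-irradiated mice: Apoe, Cst7, Lpl, Itgax, Clec7a, Axl, Spp1, Gpnmb, Lgals3 and Ch25h. They were chosen by name as genes induced in disease-associated microglia, and all 10 were found among the 23057 gene symbols of the deposited table. The samples were brains of C57BL/6 mice, 3 that received a cranial X-ray dose of 10 Gy through a collimated field 10.08 mm wide and 3 that were mock-irradiated. All were collected 30 days after the exposure, following perfusion with saline buffer, and each animal gave 1 library. No transgene, gene deletion or tumor is named for either group, and neither age nor sex is stated in the sources used here. The study, by its title, is about radiation-induced senescence near brain tumors, and the comparison asks how normal brain differs 1 month after irradiation. Both groups are labelled whole brain. Yet 10 hindbrain and spinal cord markers summed to 103 to 116 FPKM in mock libraries and 2.71 to 5.80 FPKM in irradiated ones. Regional makeup and irradiation cannot be told apart in any result that follows.

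Microglia are the resident macrophages of the brain. In ageing, demyelination and amyloid disease some of them leave the resting state, lower genes such as P2ry12 and Tmem119, and raise a shared set of genes for lipid uptake, lysosomal digestion and adhesion. Full entry into that state depends on the receptor TREM2 and its adaptor TYROBP, and the apolipoprotein APOE is both a ligand of TREM2 and a product of the state. Few of the genes belong to microglia alone: astrocytes make Apoe, some neurons and glial precursors make Lpl, hindbrain neurons and meningeal cells make Spp1, and vascular and meningeal cells make Axl and Gpnmb. In whole-tissue RNA, more cells of a type and more RNA per cell cannot be told apart.

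The set did not move as one. Lpl, Cst7 and Ch25h rose in the irradiated brains, by 3.55-, 5.93- and 2.49-fold in mean FPKM (sequenced fragments per kilobase of a transcript and per M mapped fragments of its library). Spp1 was lower in every irradiated library, at 0.49 times the mock mean, without passing the test. Apoe, Axl, Gpnmb, Lgals3 and Clec7a had overlapping groups, and Itgax was higher in each irradiated library at a level far below the filter. Tests were made with limma on log2(FPKM + 0.5) over the 14585 genes whose mean reached 0.5 FPKM, and an adjusted p under 0.05 (Benjamini-Hochberg over all of them) was a call. In that fit 3.48% of all genes were called higher and 4.24% lower, and of the 8 members that passed the filter 3 were called higher and 0 lower. Itgax and Clec7a did not pass the filter, and Cst7, with a mean of 0.52 FPKM, passed only through its irradiated libraries. Without a filter all 10 members were in the fit. The same 3 members were called higher and 0 lower, against 1.81% and 2.59% of 19679 genes. With no adjustment for the number of genes, p was under 0.05 in the main fit for 3 higher members and for 1 lower one, Spp1, against 11.7% and 13.9% of all genes. The median log2 change of the 10 members in the fit without a filter was 0.13, beside -0.0043 over all its genes.

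**Figure D1:**
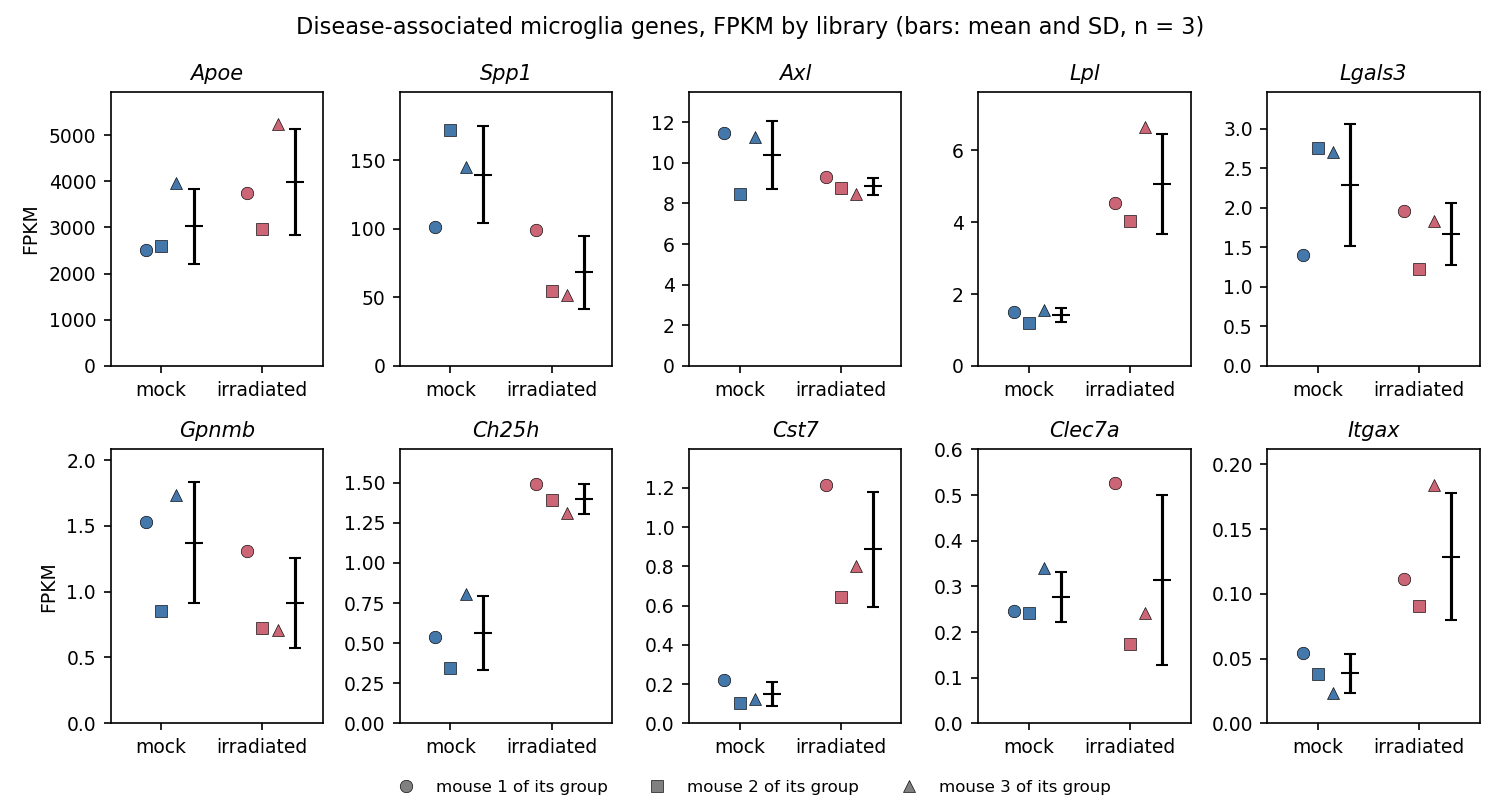
FPKM (vertical axes, each from 0 and with its own scale) of the 10 genes in the 3 mock (blue) and 3 irradiated (red) libraries, ordered by mean level; black bars give the mean and SD of each group. Lpl, Ch25h, Cst7 and Itgax lie higher in each irradiated library than in any mock library, Spp1 lies lower, and the other 5 genes overlap.

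Stretches of 250 bases upstream of the transcription start are shown for 4 members: Cst7 and Ch25h, which were called higher, Spp1, the member that lay lower, and Itgax. The sequences are from RefSeq on GRCm38.p6, the assembly that mm10 stands for, and each is written 5′ to 3′ on the gene's own strand. Capitals mark a match to one of 5 short motifs. They were searched on both strands in windows of 300 bases, from 250 before to 50 after the start. Windows were found for 9 of the 10 members, and Lpl had none in the table. The start listed for Itgax lies a little inside the span given for the gene further on.
Cst7, chr2:150570165-150570414, plus strand: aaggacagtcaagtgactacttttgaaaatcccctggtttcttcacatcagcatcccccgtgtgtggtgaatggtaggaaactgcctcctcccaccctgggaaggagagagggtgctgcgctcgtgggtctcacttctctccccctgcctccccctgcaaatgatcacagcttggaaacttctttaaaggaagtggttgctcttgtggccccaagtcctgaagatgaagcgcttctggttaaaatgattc
Ch25h, chr19:34475149-34475398, minus strand: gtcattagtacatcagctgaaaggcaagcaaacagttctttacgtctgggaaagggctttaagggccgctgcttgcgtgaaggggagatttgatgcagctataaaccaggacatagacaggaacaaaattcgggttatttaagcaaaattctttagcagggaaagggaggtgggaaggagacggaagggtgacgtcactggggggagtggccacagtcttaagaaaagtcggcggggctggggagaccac
Spp1, chr5:104434861-104435110, plus strand: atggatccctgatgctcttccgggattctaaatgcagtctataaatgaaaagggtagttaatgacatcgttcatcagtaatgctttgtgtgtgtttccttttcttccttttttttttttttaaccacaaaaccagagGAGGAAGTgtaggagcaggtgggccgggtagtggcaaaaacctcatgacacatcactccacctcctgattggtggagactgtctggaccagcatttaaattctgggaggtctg
Itgax, chr7:128129300-128129549, plus strand: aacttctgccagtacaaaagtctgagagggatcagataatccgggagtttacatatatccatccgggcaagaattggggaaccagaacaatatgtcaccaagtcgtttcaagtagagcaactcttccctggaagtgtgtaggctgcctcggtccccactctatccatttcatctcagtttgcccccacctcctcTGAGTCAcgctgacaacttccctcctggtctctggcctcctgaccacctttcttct

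The motif GAGGAAGT, bound by the myeloid factor PU.1, was found in the first of 2 windows of Spp1, starting 113 bases before the start. It is held by 3.20% of all 32851 windows and by 3.69% of genes with a window. The AP-1 motif TGAGTCA was found 56 bases before the start of Itgax and just after the start of Gpnmb. It is held by 5.20% of windows and 5.95% of genes. TCACGTGA and TCATGTGA, letters bound by the MITF and TFE family of lysosomal and melanocyte regulators, are in 0.97% and 0.99% of windows and in none of the members' windows. The direct-repeat motif of the cholesterol-sensing LXR receptors is in 0.015% of windows and in none of the members'. The motifs do not overlap each other in these windows, and a match is a description of letters only. Neither Cst7 nor Ch25h, the printed members that rose, has capitals in its stretch.

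Lpl encodes lipoprotein lipase, which releases fatty acids from lipoprotein particles (chromosome 8, 68880555 to 68906932). It was at 1.51, 1.21 and 1.57 FPKM in mock 1, 2 and 3, and at 4.53, 4.03 and 6.66 FPKM in irradiated 1, 2 and 3. The mock values lie close together and the lowest irradiated value is well above them, with irradiated 3 the highest. The log2 change was 1.51 (SE 0.21, 95% interval 1.02 to 1.99, limma adjusted p = 0.0048). It was higher in 3 of 3 irradiated libraries and was called without each library in turn (largest adjusted p = 0.025). It was not called when the mean of 8 telencephalic genes was a covariate (log2 change 1.17, adjusted p = 0.20). Mock 2 lay far below the other libraries on those genes. Lpl was the member with the largest log2 change in the main fit.

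Cst7 encodes cystatin F, an inhibitor of lysosomal cathepsins that microglia scarcely make at rest (chromosome 2, 150570415 to 150578944). Its mock libraries held 0.22, 0.10 and 0.12 FPKM and its irradiated libraries 1.21, 0.65 and 0.80 FPKM. The groups do not overlap, and irradiated 1 is the highest. The log2 change was 1.08 (SE 0.21, 95% interval 0.60 to 1.56, limma adjusted p = 0.020). The added 0.5 FPKM is larger than each mock value, so this understates the ratio of the means. The call was lost without mock 1, 2 or 3 (adjusted p = 0.056, 0.069 and 0.062). Without any irradiated library the gene fell under the filter. With no filter it was then called without irradiated 1 (adjusted p = 0.019) or irradiated 2 (0.027) but not without irradiated 3 (0.061).

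Ch25h encodes cholesterol 25-hydroxylase, which makes an oxysterol that restrains cholesterol synthesis and viral entry (chromosome 19, 34473783 to 34475148). Mock libraries had 0.54, 0.34 and 0.80 FPKM, and irradiated libraries had 1.496, 1.39 and 1.31 FPKM. The irradiated animals were alike and all above the mock range, with mock 3 the nearest to them. The log2 change was 0.86 (SE 0.21, 95% interval 0.39 to 1.33, limma adjusted p = 0.041). This call sat at the threshold: it was lost without mock 1 (adjusted p = 0.12), mock 2 (0.12), irradiated 1 (0.064), irradiated 2 (0.079) or irradiated 3 (0.12), with a pseudocount of 0.1 (0.052) and with the replicate number as a block (0.080).

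Itgax encodes CD11c, an integrin chain of dendritic cells and of activated microglia (chromosome 7, 128129526 to 128150657). It was at 0.054, 0.038 and 0.024 FPKM in the mock brains, against 0.11, 0.091 and 0.18 FPKM after irradiation. Every irradiated value is above every mock value, at a level for which the number of reads behind a value is unknown. Without a filter its log2 change was 0.22 (SE 0.072, limma adjusted p = 0.14). Its partner chain Itgb2 was at 1.54, 1.31 and 2.23 FPKM in the mock brains, against 2.49, 2.92 and 3.004 FPKM after irradiation (log2 change 0.61, SE 0.20, limma adjusted p = 0.10).

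Groups that did not overlap were common in this comparison. Without a filter, 12.3% of all genes had each irradiated library above the mock range, as had 4 of the 10 members, and 15.2% had each below it, as had 1 member.

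Spp1 encodes osteopontin, a secreted phosphoprotein that binds integrins and CD44 (chromosome 5, 104435111 to 104441053). Its mock libraries were at 101, 172 and 145 FPKM and its irradiated libraries at 98.8, 54.3 and 51.5 FPKM. The groups are separated only narrowly, since irradiated 1 lies just under mock 1. The log2 change was -1.06 (SE 0.29, 95% interval -1.73 to -0.39, limma adjusted p = 0.064). It passed the test without irradiated 1 (adjusted p = 0.014), with library weights (0.023) and with quantile normalization (0.028), and the estimate was -0.43 with the telencephalic covariate (0.69). The direction is opposite to that of Lpl, Cst7 and Ch25h in the same brains.

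Apoe, the main lipid carrier of the brain (chromosome 7, 19696244 to 19701310), was by far the most abundant member. It was at 2521, 2595 and 3966 FPKM in the mock brains, against 3749, 2969 and 5244 FPKM after irradiation. Mock 3 lies above irradiated 1 and 2, so the groups overlap. The mean was 3027 ± 814 FPKM without and 3988 ± 1156 FPKM with irradiation (SD, n = 3 each). The log2 change of 0.39 had a 95% interval of -0.37 to 1.15 (limma adjusted p = 0.49), which holds both no change and a doubling.

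The remaining members are surface and carbohydrate-binding proteins. Axl, a receptor tyrosine kinase that recognizes dying cells through its ligand GAS6 (chromosome 7, 25756500 to 25788924), was at 11.5, 8.45 and 11.3 FPKM in the mock brains, against 9.29, 8.75 and 8.48 FPKM after irradiation. Its log2 change was -0.21 (95% interval -0.60 to 0.18, limma adjusted p = 0.46), and mock 2 lay at the level of the irradiated libraries. Gpnmb, a transmembrane glycoprotein of lysosome-rich phagocytes (chromosome 6, 49036518 to 49058182), was at 1.53, 0.86 and 1.73 FPKM in the mock brains, against 1.31, 0.72 and 0.71 FPKM after irradiation. Mock 2 again lies among the irradiated values, and the log2 change was -0.40 (95% interval -0.98 to 0.18, limma adjusted p = 0.36). Lgals3, which encodes the galactoside-binding galectin-3 (chromosome 14, 47373860 to 47386167), was at 1.40, 2.76 and 2.70 FPKM in the mock brains, against 1.95, 1.23 and 1.83 FPKM after irradiation. The low library here is mock 1, and the log2 change was -0.34 (95% interval -0.92 to 0.25, limma adjusted p = 0.44).

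Clec7a encodes Dectin-1, a receptor for fungal glucans that marks activated microglia (chromosome 6, 129461591 to 129472785). It was at 0.25, 0.24 and 0.34 FPKM in the mock brains, against 0.53, 0.17 and 0.24 FPKM after irradiation. Only irradiated 1 exceeded the mock range, and irradiated 2 lay below it. The log2 change without a filter was 0.046 (95% interval -0.33 to 0.43, limma adjusted p = 0.89), and it was -0.13 without irradiated 1.

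**Figure D2:**
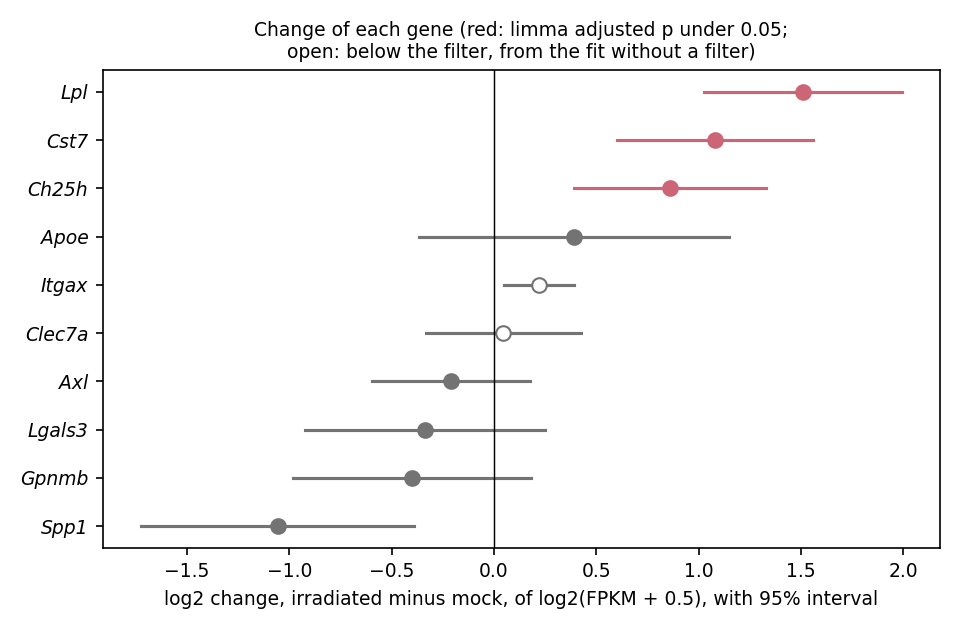
Log2 change of log2(FPKM + 0.5), irradiated minus mock (horizontal axis), with its 95% interval for each of the 10 genes; red marks an adjusted p under 0.05 and open circles the 2 genes below the filter. Lpl at 1.51, Cst7 at 1.08 and Ch25h at 0.86 lie to the right of 0 and Spp1 at -1.06 to the left.

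FPKM is a value per transcript length, so levels can be set in order. The means over the 6 libraries ran from Apoe (3507 FPKM) and Spp1 (104 FPKM) through Axl (9.61), Lpl (3.25), Lgals3 (1.98), Gpnmb (1.14), Ch25h (0.98), Cst7 (0.52) and Clec7a (0.30) to Itgax (0.084). Apoe, Spp1 and Axl kept this order in each library, with no overlap between neighbors or with Lpl. Lpl and Lgals3 swapped places between groups: Lgals3 was above Lpl in mock 2 and 3, and Lpl was above Lgals3 in mock 1 and in each irradiated library. Ch25h lay below Gpnmb in every mock library and above it in every irradiated library. Cst7 lay below Clec7a in every mock library and above it in every irradiated library.

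The same 10 genes were set against a list of 25 homeostatic microglia genes in their own library. The value is a member's log2(FPKM + 0.5) minus the mean of that list. That mean was 3.65, 3.35 and 3.72 in mock 1 to 3, against 4.09, 3.78 and 4.01 in irradiated 1 to 3. It was 0.39 higher with irradiation, so a gene of unchanged FPKM lies lower on this scale. Log2 changes of the listed genes ran from -0.74 (Sall1) to 1.40 (Mef2c), neither called and both named as the extremes. The part of other cells in the list was not tested. On this scale Lpl was at -2.65, -2.58 and -2.67 in the mock brains, against -1.76, -1.60 and -1.17 after irradiation, a difference of 1.12 with no overlap. Cst7 and Ch25h also stayed separated, with differences of 0.69 and 0.47. Apoe had a difference of 0.0020, and its groups overlapped. Spp1, Gpnmb, Lgals3 and Axl were lower relative to the list in each irradiated library, by differences of -1.45, -0.79, -0.72 and -0.60. In FPKM itself the groups of Gpnmb, Lgals3 and Axl overlapped. Without a pseudocount, a choice made after the values were seen, the differences were 1.40 for Lpl, 2.19 for Cst7 and 1.00 for Ch25h, again with no overlap. That of Itgax was 1.35, with no overlap, whereas its groups overlapped with the pseudocount. Lgals3 then overlapped (-0.82), and Itgax turned from -0.17 with the pseudocount to the positive value. No test was made on these relative levels.

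**Figure D3:**
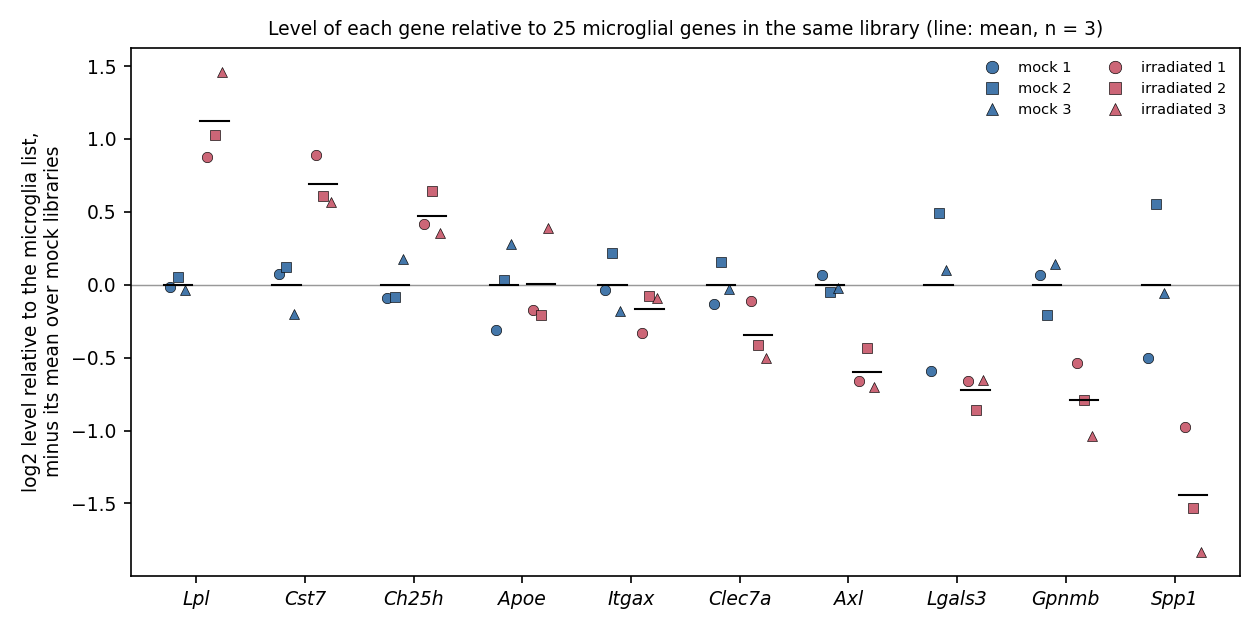
Level of each gene relative to 25 microglial genes in the same library, in log2 units (vertical axis), drawn so that the mock mean of each gene is 0; points are libraries and lines are group means. Lpl, Cst7 and Ch25h lie above 0 in each irradiated library, and Axl, Lgals3, Gpnmb and Spp1 lie below the mock libraries in each.

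Other genes of the same microglial state were called in both directions. Of 34 further disease-associated microglia genes, 31 passed the filter, 3 were called higher and 1 lower, beside 3.48% and 4.24% of all tested genes. Without adjustment 7 were higher and 3 lower at p under 0.05 in limma, beside 11.7% and 13.9% of all tested genes. Their median log2 change was 0.024, beside -0.018 over all tested genes. Lyz2, a lysozyme of macrophages, was at 14.03, 17.1 and 14.9 FPKM in the mock brains, against 42.7, 24.0 and 44.1 FPKM after irradiation (log2 change 1.19, SE 0.24, limma adjusted p = 0.024). Cd52, a small surface glycoprotein of leukocytes, was at 1.79, 3.12 and 3.78 FPKM in the mock brains, against 18.4, 7.13 and 8.95 FPKM after irradiation (log2 change 1.75, SE 0.36, limma adjusted p = 0.024). Both genes had groups that did not overlap. Timp2, an inhibitor of matrix metalloproteinases that neurons also make, went from 86.7 ± 6.43 to 146.8 ± 11.3 FPKM (SD, n = 3; limma adjusted p = 0.027). Hif1a, the oxygen-sensing transcription factor, fell from 26.09 ± 3.43 to 15.2 ± 2.48 FPKM (SD, n = 3; limma adjusted p = 0.038). Each of these 4 calls was lost on leaving out mock 1, mock 2 or irradiated 3. Those of Lyz2, Timp2 and Hif1a were also lost without mock 3, that of Timp2 without irradiated 2 and that of Hif1a without irradiated 1 (largest adjusted p 0.091 for Lyz2, 0.081 for Cd52, 0.11 for Timp2 and 0.14 for Hif1a).

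The receptor that controls the state was higher in each irradiated library without passing the test. Trem2 was at 10.1, 8.41 and 14.8 FPKM in the mock brains, against 18.9, 15.03 and 19.2 FPKM after irradiation, so mock 3 and irradiated 2 nearly touch (log2 change 0.68, SE 0.22, limma adjusted p = 0.098). Tyrobp, its signalling adaptor, was at 30.0, 35.1 and 35.7 FPKM in the mock brains, against 82.5, 47.5 and 53.7 FPKM after irradiation (log2 change 0.82, SE 0.22, limma adjusted p = 0.059). Tyrobp was called without irradiated 2 or with library weights (smallest adjusted p = 0.035). Of the 16 genes of TREM2 and TAM receptor signalling, limma called 0 in either direction. Without adjustment 4 of these had a higher and 1 a lower level at p under 0.05, beside 11.7% and 13.9% of all tested genes. The median log2 change of the 16 genes was 0.28. Trem2 and Tyrobp are counted both in this list and among the further disease-associated genes. Gas6, the ligand of Axl, was at 77.2, 75.4 and 105.5 FPKM in the mock brains, against 89.9, 88.9 and 103 FPKM after irradiation (limma adjusted p = 0.66).

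Homeostatic genes were not lower as a group. Of 25, 4 were called higher and 0 lower, beside 3.48% and 4.24% of all tested genes, with a median log2 change of 0.27. Without adjustment 11 were higher and 0 lower at p under 0.05, beside 11.7% and 13.9% of all tested genes. C1qc, a chain of the complement component C1q, went from 43.4 ± 8.01 to 86.3 ± 16.7 FPKM (SD, n = 3; limma adjusted p = 0.028). The other calls were Fcrls and Laptm5, markers of microglia and leukocytes, and Ltc4s, the leukotriene C4 synthase, with log2 changes of 1.05, 1.00 and 1.25. All 4 calls were lost without mock 1, mock 2 or irradiated 3, and that of Ltc4s also without irradiated 1 or 2 (largest adjusted p 0.15). P2ry12, the purinergic receptor of resting microglia, was at 8.41, 8.26 and 7.56 FPKM in the mock brains, against 9.36, 7.86 and 9.72 FPKM after irradiation (limma adjusted p = 0.60). Tmem119 was at 8.33, 7.94 and 11.1 FPKM in the mock brains, against 19.4, 11.8 and 13.7 FPKM after irradiation (limma adjusted p = 0.10). Csf1r, the survival receptor of microglia, was at 19.5, 13.7 and 20.5 FPKM in the mock brains, against 13.9, 13.8 and 18.2 FPKM after irradiation (limma adjusted p = 0.53). The groups overlapped for P2ry12 and Csf1r and did not for Tmem119, and differences between these genes were not tested.

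Lipoprotein and cholesterol genes around Apoe, Lpl and Ch25h gave 1 call higher and 2 lower among the 24 tested of 27, beside 3.48% and 4.24% of all tested genes. Their median log2 change was -0.061. Cyp46a1, the neuronal enzyme that turns cholesterol into its exported form, was at 57.2, 30.3 and 64.2 FPKM in the mock brains, against 115, 119.6 and 196 FPKM after irradiation (log2 change 1.52, SE 0.32, limma adjusted p = 0.026). Abca7, a lipid transporter, was at 9.74, 7.46 and 9.64 FPKM in the mock brains, against 4.34, 4.68 and 5.16 FPKM after irradiation (log2 change -0.85, SE 0.17, limma adjusted p = 0.023). Nr1h3, which encodes the oxysterol receptor LXR-alpha, was lower by the same test (log2 change -0.67, SE 0.16, adjusted p = 0.041). Each of these 3 calls was lost without mock 1 or irradiated 3. That of Cyp46a1 was also lost without mock 2, that of Abca7 without mock 3 or irradiated 2, and that of Nr1h3 without mock 2, mock 3 or irradiated 2 (largest adjusted p 0.090 for Cyp46a1, 0.099 for Abca7 and 0.15 for Nr1h3). Gpihbp1, which carries lipoprotein lipase across capillary walls, was listed at 0 in all libraries except mock 2 (0.075 FPKM). Cyp7b1, which hydroxylates the product of Ch25h further, was at 3.27, 4.36 and 5.19 FPKM in the mock brains, against 8.41, 5.08 and 6.41 FPKM after irradiation (limma adjusted p = 0.16). Gpr183, the receptor of the resulting oxysterol, was under the filter at 0.32, 0.30 and 0.29 FPKM in the mock brains, against 0.57, 0.27 and 0.33 FPKM after irradiation.

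The 16 genes listed as partners of the secreted and surface members had a median log2 change of 0.10. Cst3 of this list is also counted among the homeostatic genes, and Ctsl among the further disease-associated genes (both named for that overlap). Beside 3.48% and 4.24% of all tested genes, 1 partner was called higher and 0 lower. It was Lgals3bp, the secreted glycoprotein that binds galectin-3, at 10.8, 6.61 and 11.8 FPKM in the mock brains, against 26.3, 28.04 and 24.2 FPKM after irradiation. The groups are far apart (log2 change 1.42, SE 0.22, limma adjusted p = 0.0074), and the call held without each library in turn (largest adjusted p = 0.027), whereas Lgals3 itself overlapped between groups. Lgals3bp is also an interferon-induced gene. Ctsc, the protease activated in lysosomes and inhibited by cystatin F, was at 3.31, 3.27 and 2.94 FPKM in the mock brains, against 3.59, 3.10 and 3.73 FPKM after irradiation (limma adjusted p = 0.69).

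Markers of other cells and of brain regions moved between the same libraries. Over all tested genes, 3.48% were called higher and 4.24% lower. Of 12 cerebellum markers and 10 of hindbrain and spinal cord (the hindbrain list), 11 and 10 were called lower and 0 higher. Their median log2 changes were -3.19 and -3.44. Of 10 hippocampus and 8 telencephalon markers, 7 and 3 were called higher and 0 lower, with medians of 2.55 and 1.99. The hindbrain list was lower in each irradiated library, as was Spp1, and the hippocampus list was higher in each, as was Lpl. In the irradiated group Lpl was highest and Spp1 lowest in irradiated 3, which also had the highest hippocampus and telencephalon medians (1.67 and 1.49) and the lowest hindbrain median (-1.92). Cst7 and Ch25h, the other called members, were highest in irradiated 1, and Ch25h was lowest in irradiated 3. In the mock group Lpl and the hippocampus median were highest in mock 3. Spp1 was highest in mock 2, whereas the hindbrain median was highest in mock 3 (1.76). Irradiated 1 and 2 had hippocampus medians of 1.17 and 0.76 and telencephalon medians of 0.48 and 0.85, so these lists ordered them in opposite ways. Telencephalon medians in mock 1 to 3 were -0.17, -2.19 and -0.24. Mock 2 thus lay far below every other library on this list, and the covariate drawn from these genes largely reflects that library. The part of regional makeup in the results for the members was not tested apart from the telencephalic covariate, which left 17 of all genes higher, 61 lower and 0 members called.

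Markers of the other cells that make these transcripts are given in the same way. Over all tested genes, limma called 3.48% higher and 4.24% lower. When p was not adjusted, 11.7% of all tested genes were higher and 13.9% lower at p under 0.05. Of 10 border macrophage markers, 7 were tested and 0 called in limma (2 higher and 0 lower when p was not adjusted), and their summed level was 7.23 to 8.97 FPKM in mock and 11.6 to 24.3 FPKM in irradiated libraries. The highest sum, in irradiated 1, is carried by Cbr2 (11.7 FPKM) and Pf4 (5.98 FPKM). The list's median level, in log2 units around each gene's mean, put irradiated 1 lowest of the irradiated libraries (0.078, 0.13 and 0.28 in irradiated 1 to 3, against -0.19, -0.23 and -0.18 in mock 1 to 3). Of 10 monocyte and neutrophil markers, 9 were in the table, 3 were tested and 0 called, and the sum was 40.04 FPKM in irradiated 1 but 2.33 to 10.8 FPKM in the other libraries. Astrocyte markers, relevant to Apoe, had 2 of 10 called lower (Aqp4 and S100b) and 0 higher. When p was not adjusted, 4 of them were lower and 0 higher. Markers of oligodendrocyte precursors, relevant to Lpl and Gpnmb, had 4 of 10 called lower (Gpr17, Neu4, Enpp6 and C1ql1) and 0 higher. When p was not adjusted, 7 of these 10 were lower and 0 higher, and their median log2 change was -0.75. Pdgfra, Cspg4 and Olig1 of the same list overlapped between groups (limma adjusted p = 0.27, 0.93 and 0.29), and 7 genes lay lower in each irradiated library. Markers of mature oligodendrocytes had 3 of 10 called lower and 0 higher. All 10 were lower when p was not adjusted, with a median log2 change of -0.76. Vascular fibroblast markers had 1 of 10 called higher (Dcn) and 0 lower, and the list's medians overlapped between groups (0.080, -0.26 and -0.038 in mock 1 to 3, against 0.062, 0.017 and -0.026 in irradiated 1 to 3). Of 8 dendritic cell markers, relevant to Itgax, 4 were tested and 2 called lower (Flt3 and Zbtb46, both also made outside dendritic cells), while Xcr1, Clec9a, Cd209a and Ccr7 stayed under the filter and Ccr7 was listed at 0 in each mock library. Of 7 red cell markers, 6 were in the table, 1 was tested and 0 were called. The sum was 1.05 to 19.7 FPKM over the irradiated libraries and 10.8 to 19.2 FPKM over the mock ones. Of 10 endothelial markers 0 were called, with 0 higher and 3 lower when p was not adjusted. Marker genes named in these sentences were chosen after their values were seen. No defining marker was at 0 in all 6 libraries, and the part of these cells in the members' results was not tested.

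**Figure D4:**
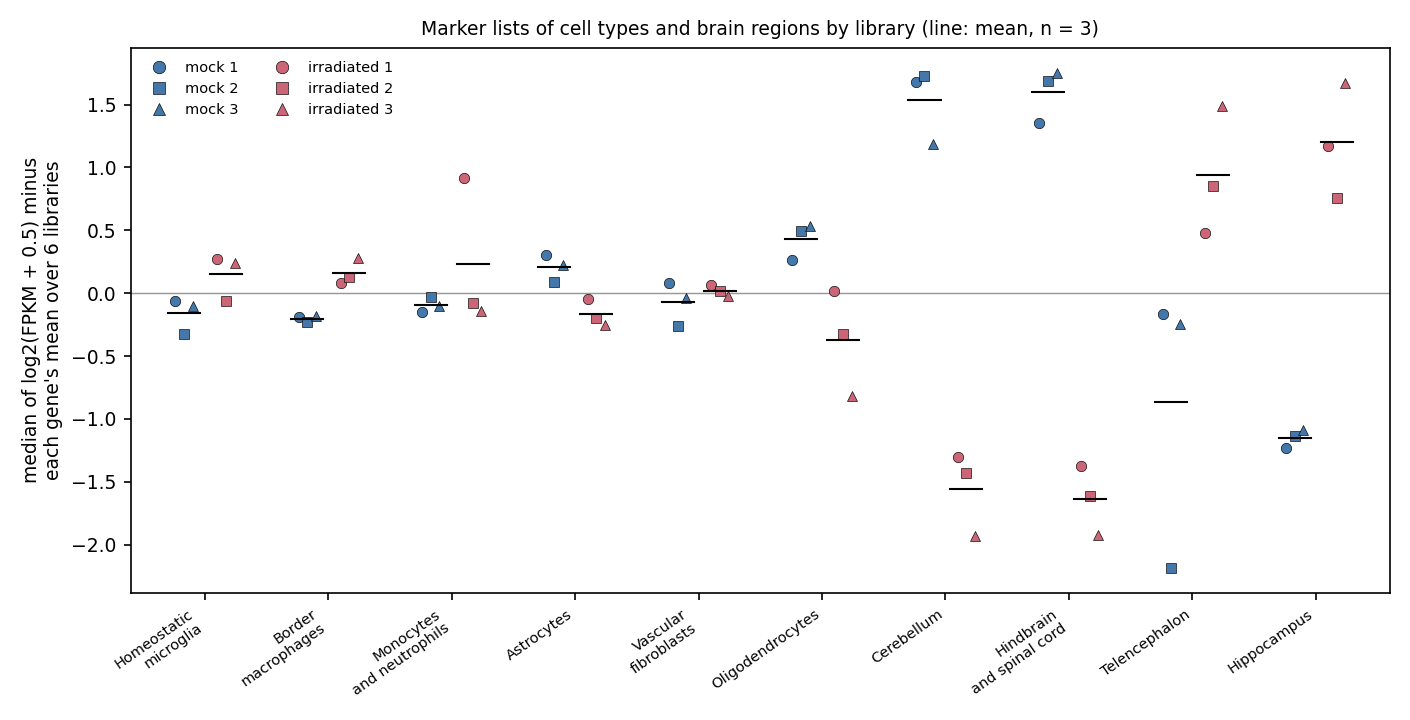
Median of each marker list in each library, in log2 units relative to each gene's mean over the 6 libraries (vertical axis); points are libraries and lines are group means. The cerebellum list and the hindbrain and spinal cord list lie at or above 1.19 in mock and at or below -1.30 in irradiated libraries. The hippocampus list lies at or below -1.09 in mock and at or above 0.76 in irradiated libraries. The microglial and border macrophage lists are spread over less than the region lists.

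The members' patterns over the 6 libraries were compared as Pearson correlations of log2(FPKM + 0.5), given as a description since the libraries form 2 groups and share tissue differences. The highest values among the 45 pairs were 0.94 for Lpl with Itgax, 0.92 for Cst7 with Lpl and 0.91 for Axl with Gpnmb, and the lowest was -0.85 for Lpl with Spp1. The genes most like Lpl were Car11, Dgat2 and Ltk (each r of 0.997 or 0.998), and 407 of the other tested genes (2.79%) had r over 0.95 with it. Those most like Cst7 were Tmem222, Creld1 and Pisd (r from 0.993 to 0.995), those most like Ch25h were Cdca8, Mrgpre and Fam179a (r from 0.988 to 0.994), and those most like Spp1 were Etfa, Haus3 and Id2 (r from 0.991 to 0.994). For Apoe they were Rem2, Apopt1 and Ubb, for Axl they were Comp, Tshz1 and Wisp1, for Gpnmb they were Derl3, Inpp5j and Nrip3, and for Lgals3 they were Rer1, Clcc1 and S100a1, with r from 0.984 to 0.997. None of these 24 genes is a member or belongs to the 5 pathway lists.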

How the data were processed

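RNA of 6 mouse brains, 3 mock-irradiated and 3 irradiated, was sequenced as stranded, ribosome-depleted libraries with single-end reads of 75 nucleotides and about 30 to 40 M reads each, per the labels' protocols. The authors deposited FPKM values, 1 column per library. Per the submitters' processing notes, the tools were TopHat, Cufflinks and Cuffdiff, with the mouse build mm10. Their versions, the gene annotation and the scaling total are not given in the sources used. The deposited FPKM summed to 472450 to 625782 per library after 1 leftover header line was removed. Whole reads could not be recovered: among genes under 0.05 FPKM no ratio to mock 1 was shared by over 1.76% of genes. Depth beyond the stated reads is therefore unknown, and no counting interval is given.

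The test was limma 3.58.1 (R 4.3.3) on log2(FPKM + 0.5), group as the only term, trended empirical Bayes, two-sided, with Benjamini-Hochberg adjustment. It was tested on simulated data. With 3 animals against 3 an exact permutation test cannot go below p = 0.1, so no such test is used. Nothing says that same-numbered mice are related. The members, lists and alternatives were chosen with earlier results of these data known. Named genes were the members, the called genes of 5 pathway lists (up to 6 each), 11 genes named whatever their result, and 3 genes most like each tested member; other names are marked. Alternatives were other pseudocounts, filters and scalings, robust fitting, library weights, a replicate block, left-out libraries and a telencephalic covariate (the mean of 8 marker genes, whose single values are not reported here).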

Additional observations from a re-analysis of the deposited data

How the results depend on the processing

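Direction held for 9 of the 10 members in every alternative that gave a value. The exception was Clec7a, at -0.050 with library weights, -0.16 without mock 2 and irradiated 1 together, and between -0.13 and 0.17 with 1 library left out. Among the partners, Gas6 turned to -0.037 with quantile normalization and -0.10 with the telencephalic covariate, Gpihbp1 to 0.047 with median centring and 0.084 with that covariate, and Gpr183 to -0.0075 without mock 2 and irradiated 1 together and to between -0.0033 and 0.23 with 1 library left out.

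The members called higher numbered 1 with a mean of at least 1 FPKM (Cst7 and Ch25h are then not tested) and 1 without mock 2 and irradiated 1 together, 0 with the covariate (which left 3 residual degrees of freedom) and 1 to 2 with 1 library left out; the cause was not tested. Members called lower numbered 1 with quantile normalization, 1 with library weights, 2 (Spp1 and Gpnmb) without mock 2 and irradiated 1 together, and 0 to 1 with 1 library left out. Over the 5 pathway lists, 9 genes were higher and 3 lower in the main fit. With 1 library left out they numbered 1 to 12 and 0 to 5. Higher calls numbered 0 with the covariate, and lower calls 1 without a filter, 8 with library weights, 0 with the block and 0 with the covariate. Over all genes, 508 were higher and 618 lower. Library weights gave 863 and 976, the covariate 17 and 61, and leaving out 1 library 147 to 673 and 254 to 695.

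Besides left-out libraries, calls of pathway genes ended without a filter for Cd52, Hif1a, Ltc4s, Cyp46a1 and Nr1h3, with quantile normalization for Timp2 and Nr1h3, with median centring for Nr1h3, with the block for Lyz2, Cd52, Timp2, Hif1a, Abca7 and Nr1h3, without mock 2 and irradiated 1 together for Hif1a, C1qc, Ltc4s and Nr1h3, and with the covariate for all 12 called pathway genes.

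The replicate number as a block gave 401 genes higher and 394 lower and kept Lpl (adjusted p = 0.016) and Cst7 (0.037) but not Ch25h (0.080). The correlations of deviations between same-numbered libraries were -0.33, 0.19 and 0.20, and 1 of 6 libraries was closest to its own number. These few values show no pairing by number and cannot exclude it. The low levels of Itgax, Clec7a and Cst7 are limited by a depth that the deposited values do not show.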
